A study of Mus musculus with 20 samples.

Results

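The Toll-like receptor genes were examined across 20 RNA-seq libraries of cDC1s sorted from mice. These type 1 conventional dendritic cells bear the chemokine receptor XCR1 and are specialised in showing antigen to CD8 T cells. The members were the 10 genes Tlr1, Tlr2, Tlr3, Tlr4, Tlr5, Tlr7, Tlr9, Tlr11, Tlr12 and Tlr13. They were found by their Ensembl gene identifiers in each of the 3 deposited count tables, which held 47729, 54532 and 55487 genes. Tlr6 and Tlr8, the remaining Toll-like receptor genes counted, were kept beside them for comparison.

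The libraries fell into 8 groups. The first table held XCR1+CD8a+ cDC1s of WT C57BL/6 mice, either on day 15 of TLI/ATS (total lymphoid irradiation with anti-thymocyte serum, a regimen that promotes tolerance) or untreated, with 2 libraries each. The second held the EpoR+ and the EpoR- fraction of XCR1+CD8a+ cDC1s from EpoR-tdTomato mice, in which a red fluorescent reporter marks expression of the erythropoietin receptor, with 2 libraries each. Both fractions had received TLI/ATS and were taken on day 15. The third held XCR1+SIRPa- cDC1s of peripheral lymph node and of spleen, from Epor-Xcr1-Cre cKO mice, in which Cre expressed from the Xcr1 gene deletes Epor in cDC1s, and from Eporflox/flox control mice, with 3 libraries in each of 4 groups. No treatment is given for the third table. The control label names no Cre, so an effect of Cre itself and of Epor loss cannot be told apart. The sample labels name CCR7 in the sort of both tissues and call the lymph node cells migratory, whereas the design text names CCR7 for the spleen alone, so tissue and sort gate cannot be told apart. The labels do not say whether libraries came from separate animals, and p-values therefore measure the spread between these libraries.

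Toll-like receptors are membrane proteins that recognise molecules of microbes and start inflammatory and interferon responses through the adaptors MyD88 and TRIF (Ticam1). Tlr1, Tlr2, Tlr4 and Tlr5 act at the cell surface, where Tlr2 pairs with Tlr1 or Tlr6 to bind bacterial lipoproteins, Tlr4 with its partner Ly96 binds lipopolysaccharide and Tlr5 binds flagellin. Tlr3 (double-stranded RNA), Tlr7 (single-stranded RNA), Tlr9 (unmethylated CpG DNA) and Tlr13 (bacterial ribosomal RNA) bind nucleic acids in endosomes, to which the chaperone Unc93b1 carries them. Tlr11 and Tlr12 bind the profilin of Toxoplasma and related parasites in mice. Mouse cDC1s are known for high Tlr3, Tlr11 and Tlr12 and for little Tlr7, which plasmacytoid dendritic cells and macrophages express.

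Total counts per library ran from 40583507 to 77570149 in the first table, from 33660774 to 40127646 in the second and from 26618029 to 49700660 in the third. A floor of 3 counts corresponded to 0.0387 to 0.113 CPM, the usual count scaled to the library total, and covers counting error only. Epor, the targeted gene, had 0, 0 and 0 counts in lymph node cKO libraries and 24, 28 and 4 in lymph node controls. It had 0, 2 and 0 counts in spleen cKO libraries and 1, 0 and 6 in spleen controls, so the labels could not be checked by it in the spleen at this depth. It had 525 and 657 counts in EpoR+ and 4 and 11 in EpoR- libraries, and 236 and 127 after TLI/ATS against 0 and 0 in untreated cells. The cDC1 markers (Xcr1, Clec9a, Cd8a, Batf3, Irf8, Wdfy4, Naaa, Cadm1 and Itgae) were above 0 in every group. In bulk samples, fewer cells of a type and less RNA per cell cannot be told apart.

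The promoters of members that moved together are shown first, since Tlr1, Tlr3 and Tlr11 were lower in lymph node than in spleen cDC1s in both genotypes. RefSeq (GRCm38.p6) start sites were given for 8 of the 10 members, all but Tlr4 and Tlr7. The 250 bases before each start were searched on both strands for the PU.1 core GAGGAAG, the interferon response element (GAAA, any 2 bases, GAAA), the kappaB motif (GGG, any 2 bases, TTTCC), the AP-1 motif TGANTCA, in which N is any base, and the ETS-IRF composite (GGAA, any 2 bases, GAAA). PU.1, the IRF factors, NF-kappaB and AP-1 are regulators of dendritic cell and inflammatory genes. Tlr1 had 2 starts, of which the more upstream one had the match. Of the 5 members with a match, the bases around it follow in the direction of transcription, with the matched letters in capitals.
Tlr11, chr14:50357761-50357820, plus strand: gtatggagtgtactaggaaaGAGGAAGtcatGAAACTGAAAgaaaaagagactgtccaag
Tlr1, chr5:64933559-64933618, minus strand: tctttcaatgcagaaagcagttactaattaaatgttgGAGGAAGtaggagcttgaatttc
Tlr3, chr8:45410558-45410617, minus strand: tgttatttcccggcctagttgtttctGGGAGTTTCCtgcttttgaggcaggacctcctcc
Tlr13, chrX:106143165-106143224, plus strand: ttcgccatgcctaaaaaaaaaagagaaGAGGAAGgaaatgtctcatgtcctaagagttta
Tlr9, chr9:106222480-106222552, plus strand: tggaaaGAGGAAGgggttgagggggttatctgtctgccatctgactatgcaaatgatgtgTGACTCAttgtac
The PU.1 core stood before the start of Tlr1, Tlr9, Tlr11 and Tlr13, that is of 4 of the 8 members searched, against 10.6% of 32851 promoters of the same length. That share counts each start apart, whereas Tlr1 with its 2 starts is counted once. The interferon response element stood before Tlr11 (2.98% of promoters) and the AP-1 motif before Tlr9 (6.75%, a match on both strands because the letters are a palindrome). The kappaB motif (1.41%) stood before the Tlr3 start given, 45410380. That start and the bases shown lie inside the Tlr3 gene as annotated (45395665 to 45411080), not before its outer end. The 50 bases from the starts of Tlr1 and Tlr13 were not found unbroken in an annotated transcript of these genes. The ETS-IRF composite, in 2.3% of promoters, was in no member's window. These matches describe letters and were not tested for binding. Tlr1, Tlr3 and Tlr11 had no motif in common, and the PU.1 core stood before Tlr9 and Tlr13 too, which did not pass the tissue test.

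All members are annotated as protein-coding on GRCm38. Tlr1 (ENSMUSG00000044827) lies on chromosome 5 from 64924679 to 64933563 on the minus strand, with Tlr6 upstream of it at 64952031 to 64960097 on the same strand. Of the 50-base stretches of Tlr1 transcripts 13.6% also occur in Tlr6 transcripts, which makes the split of their counts uncertain. Tlr7 (ENSMUSG00000044583) lies on chromosome X from 167304929 to 167330558, next to Tlr8 at 167242696 to 167264329, both on the minus strand. Tlr3 (ENSMUSG00000031639) lies on chromosome 8 from 45395665 to 45411080 on the minus strand. Of its stretches 5.3% occur in the antisense model Gm45542, and reads in the second and the third table were counted without strand. Tlr11 (ENSMUSG00000051969) lies on chromosome 14 from 50357914 to 50363663 on the plus strand, and Tlr12 (ENSMUSG00000062545) on chromosome 4 from 128615443 to 128618619 on the minus strand. Tlr4 (ENSMUSG00000039005) is on chromosome 4 from 66827584 to 66930284 on the plus strand and Tlr2 (ENSMUSG00000027995) on chromosome 3 from 83836272 to 83841767 on the minus strand.

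In untreated XCR1+CD8a+ cDC1s the family was led by the profilin receptors and Tlr3. Levels between genes are compared in RPKM, the CPM per kilobase of the summed exon length of the gene. Tlr11 stood at 60 ± 0.276 RPKM (SD, n = 2), followed by Tlr12 at 39.5 ± 0.859 and Tlr3 at 31.6 ± 0.872, and these did not overlap with each other. Tlr2 (11.9 ± 1.67) and Tlr13 (11.8 ± 0.354) overlapped, and Tlr1 (3.36 ± 0.478) and Tlr7 (1.90 ± 0.361) came next. Tlr9 (0.719 ± 0.216) and Tlr4 (0.643 ± 0.00564) overlapped at the low end, and Tlr5 was lowest at 0.464 ± 0.0562 RPKM. The place of Tlr9 holds for the counts of the first table only. After TLI/ATS it averaged 0.796 CPM there, but 76.9 CPM in EpoR+ and 89.2 CPM in EpoR- libraries of the second, for a cause not tested.

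**Figure D1:**
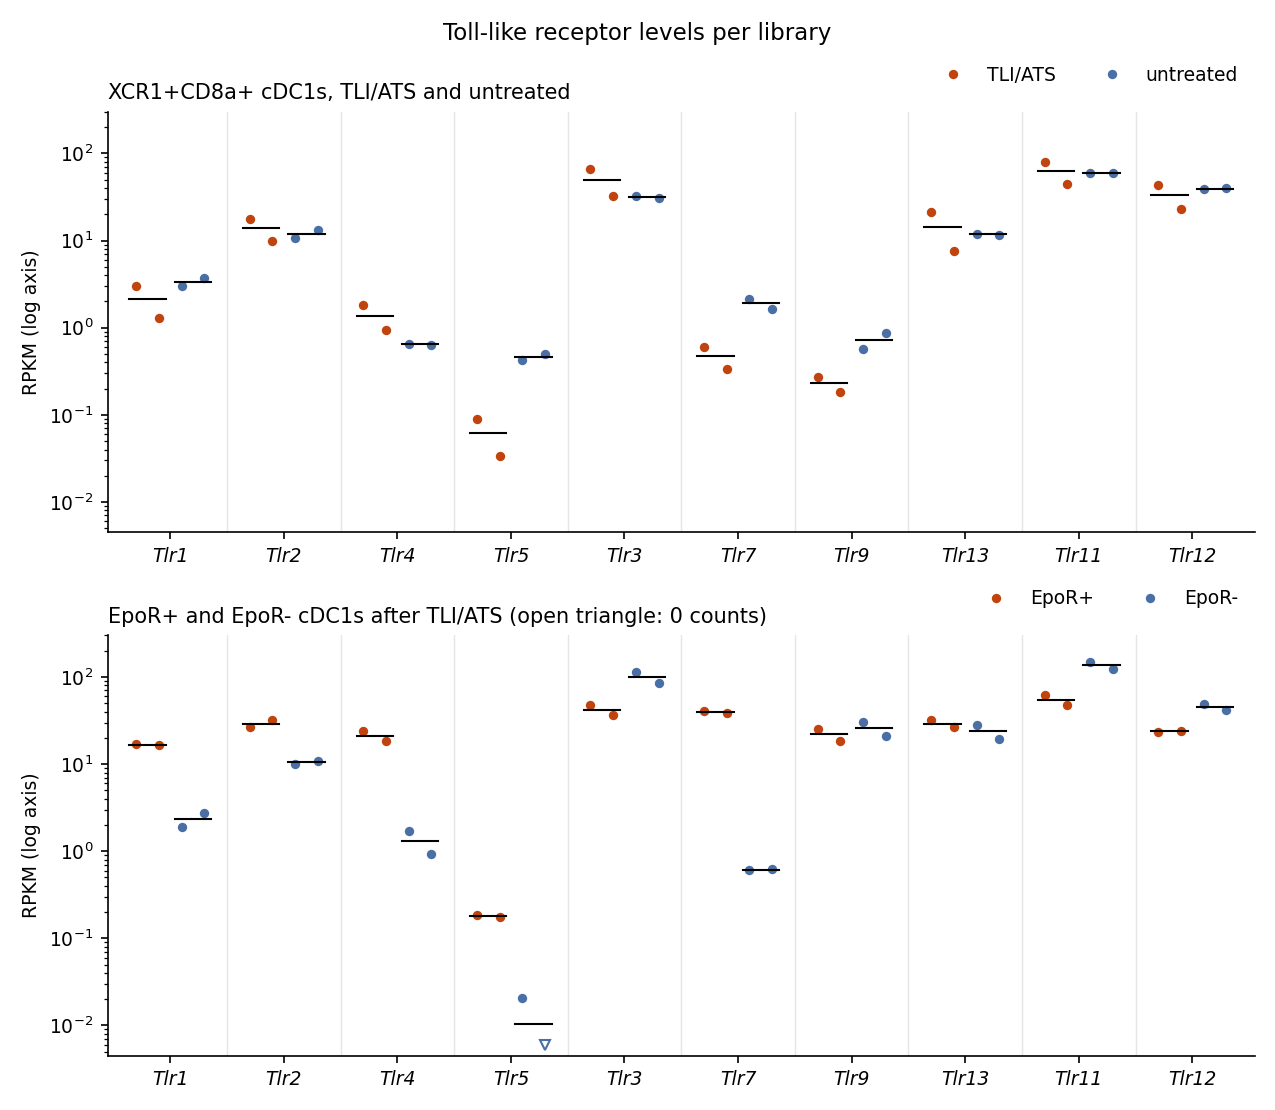
RPKM (log axis) of the 10 members per library, 1 point per library and a line at the group mean, for TLI/ATS and untreated cDC1s above and EpoR+ and EpoR- cDC1s below. Tlr7 stands at 40.8 and 39.0 RPKM in EpoR+ and at 0.604 and 0.619 in EpoR- libraries, the widest gap among the members.

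After TLI/ATS no member passed the threshold, and the direction of several depended on which treated library was used. The quasi-likelihood test of edgeR, adjusted by Benjamini-Hochberg over 17236 genes, called 0 of 10 members, where 2.70% of all genes were called. At an unadjusted p under 0.05 it gave 4 members (Tlr4, Tlr5, Tlr7 and Tlr9), where 2705 of the 17236 genes had such a p. DESeq2 called 3 members (Tlr4, Tlr5 and Tlr7), and over all genes it also called more than edgeR, as given below. The groups did not overlap for 5 members, against 46.0% of all genes. The median log2 fold change of the members was 0.01, beside 0.02 over all genes.

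Among the nucleic acid receptors, Tlr3 had 348 and 169 CPM after TLI/ATS, against 168 and 162 CPM in untreated cells. One treated library was thus about level with the untreated ones and the other far above them (log2 fold change 0.75 ± 0.32 SE, adjusted p = 0.361). Tlr7 had 2.48 and 1.38 CPM after TLI/ATS and 8.81 and 6.73 CPM in untreated cells, lower in both treated libraries (-1.90 ± 0.36, adjusted p = 0.0753, DESeq2 adjusted p = 0.000247). Tlr9 had 0.954 and 0.639 CPM after TLI/ATS and 1.97 and 3.03 CPM in untreated cells (-1.53 ± 0.40, adjusted p = 0.151). These values carry the limit given above for Tlr9 in the first table. Tlr13 had 90.8 and 32.8 CPM after TLI/ATS, on either side of the untreated 51.7 and 49.5 CPM.

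Of the surface receptors, Tlr5 had 33 and 11 counts after TLI/ATS and 94 and 98 in untreated cells, or 0.425 and 0.163 CPM against 2.03 and 2.41 CPM. Both treated libraries were lower (-2.80 ± 0.53, adjusted p = 0.0782, DESeq2 adjusted p = 0.00211). Tlr4 had 10.1 and 5.18 CPM after TLI/ATS and 3.59 and 3.55 CPM in untreated cells, higher in both treated libraries (1.2 ± 0.35, adjusted p = 0.193, DESeq2 adjusted p = 0.0479). Tlr1 (-0.54 ± 0.41) and Tlr2 (0.32 ± 0.28) overlapped between the groups.

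Tlr11 had 265 and 146 CPM and Tlr12 138 and 74.1 CPM after TLI/ATS, each with the untreated libraries (196 and 197 CPM, and 124 and 128 CPM) in between. The first treated library was higher than the second for every member, and its summed member level was 236 RPKM against 121 RPKM in the second, while the untreated libraries stood at 161 and 163 RPKM. The fit was repeated without the first and without the second treated library. Tlr2, Tlr11, Tlr12 and Tlr13 changed direction between these fits, with Tlr13 at -0.43 and at 0.90 on the log2 scale. Each of these fits has 1 treated library, which is assumed to vary like the untreated ones.

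Markers of other cells moved in the same comparison. B cell markers were called lower for 9 of 10 (summed level 59.7 to 69.5 CPM after TLI/ATS, 641 to 658 CPM untreated), plasmacytoid dendritic cell markers for 7 of 9 (245 to 249 CPM after TLI/ATS, 1170 CPM in both untreated libraries) and T cell markers for 10 of 10 (15.1 to 18.5 CPM after TLI/ATS, 606 to 615 CPM untreated). Macrophage markers were called higher for 8 of 12 (1010 to 1490 CPM after TLI/ATS, 204 to 223 CPM untreated). All markers of these 4 lists were above 0 in both groups. The cDC2 markers were called lower for 2 of 8 (74.7 to 89.8 CPM after TLI/ATS, 189 to 220 CPM untreated). Of 10 monocyte and neutrophil markers 3 were called higher and 2 lower (1090 to 1310 CPM after TLI/ATS, 1480 to 1540 CPM untreated). Retnlg of that list was at 0 in untreated cells. B cells and plasmacytoid dendritic cells are known to express Tlr7 and Tlr9, and the part of these markers in the Tlr7 and Tlr9 values was not tested.

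After TLI/ATS the EpoR+ and EpoR- fractions differed in the levels of most Toll-like receptor genes. Tlr7, Tlr4, Tlr1 and Tlr2 rose and Tlr11, Tlr3 and Tlr12 fell, so that 7 of 10 members were called, 4 higher and 3 lower. Over all 15627 genes 16.7% were called, 11.9% higher and 4.75% lower. The groups did not overlap for 8 members, against 58.1% of all genes. The median log2 fold change of the members was 0.86, beside 0.02 over all genes.

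**Figure D2:**
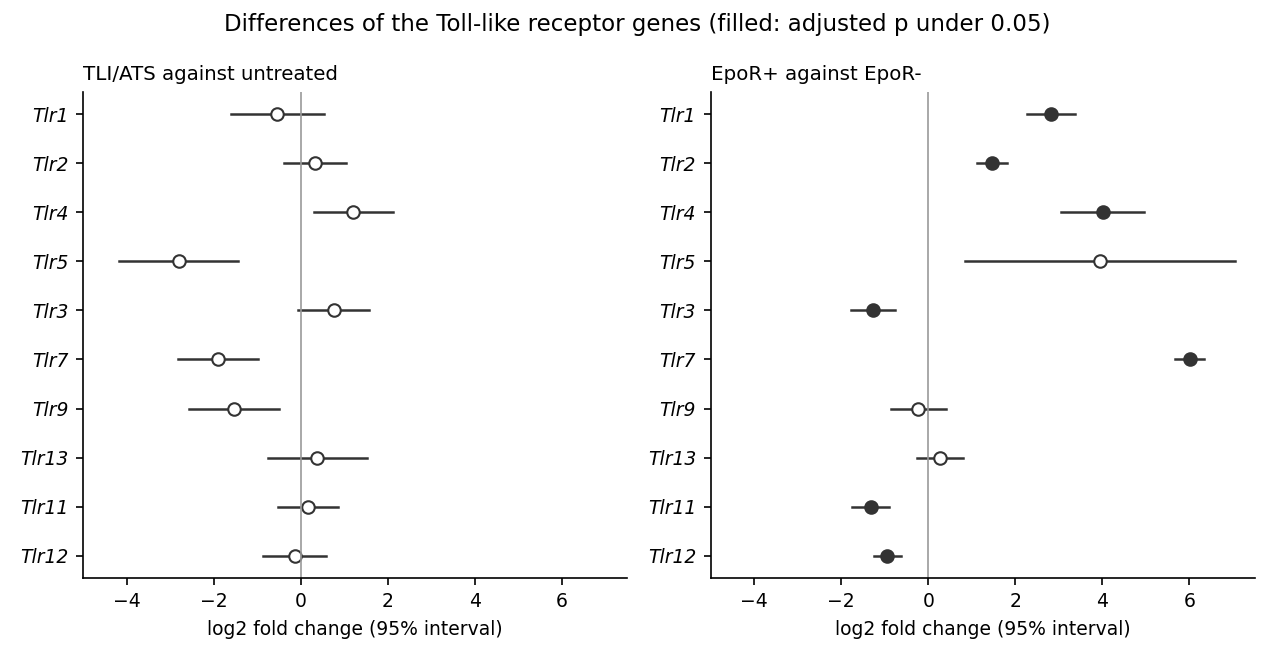
Log2 fold change of each member with its 95% interval from edgeR's standard error, TLI/ATS against untreated on the left and EpoR+ against EpoR- on the right; filled points have an adjusted p under 0.05. On the left no point is filled, and on the right Tlr1, Tlr2, Tlr4 and Tlr7 lie above 0 and Tlr3, Tlr11 and Tlr12 below.

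Tlr7 had 6213 and 6036 counts in EpoR+ libraries and 99 and 85 counts in EpoR- libraries, or 166 and 159 CPM against 2.47 and 2.53 CPM. Each pair of libraries lay close together, and the fold of 64.4 was the largest of the members (log2 fold change 6.01 ± 0.13, edgeR adjusted p = 2.62e-05). Its neighbour Tlr8, a homologue outside the 10 members, had 3768 and 3278 counts in EpoR+ and 56 and 29 in EpoR- libraries (6.34 ± 0.28, adjusted p = 0.00016). Tlr9 was at like levels in both fractions, with 89.0 and 64.7 CPM in EpoR+ and 105 and 72.9 CPM in EpoR- libraries. Its log2 fold change was -0.23 with a 95% interval from -0.86 to 0.40. Tlr13 had 136 and 115 CPM in EpoR+ and 122 and 84.5 CPM in EpoR- libraries (0.27, interval -0.26 to 0.79), and these groups overlapped as well. Same-numbered libraries correlated at 0.64, though the labels do not say that they are pairs. With replicate number as a block in the fit, Tlr13 passed at an edgeR adjusted p of 0.0497.

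Tlr3, the endosomal receptor of double-stranded RNA, had 247 and 190 CPM in EpoR+ libraries and 593 and 448 CPM in EpoR- libraries. The groups did not overlap (log2 fold change -1.27 ± 0.20, adjusted p = 0.0132). The profilin receptors were lower with it. Tlr11 had 202 and 157 CPM in EpoR+ and 482 and 406 CPM in EpoR- libraries (-1.32 ± 0.17, adjusted p = 0.0059). Tlr12 had 74.5 and 76.5 CPM in EpoR+ and 154 and 131 CPM in EpoR- libraries (-0.94 ± 0.13, adjusted p = 0.00686). All 6 values of these genes in EpoR+ libraries were thus below their EpoR- counterparts.

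The surface receptors were higher. Tlr4 had 133 and 103 CPM in EpoR+ and 9.37 and 5.14 CPM in EpoR- libraries, a fold of 16 (4.00 ± 0.36, adjusted p = 0.00336). Tlr1 had 56.2 and 55.5 CPM in EpoR+ and 6.30 and 9.30 CPM in EpoR- libraries (2.83 ± 0.22, adjusted p = 0.00106). Tlr2, the partner of Tlr1, had 79.9 and 95.6 CPM in EpoR+ and 30.5 and 32.6 CPM in EpoR- libraries (1.46 ± 0.14, adjusted p = 0.002). These groups lay apart in each case. Tlr6, the other partner of Tlr2, had 17.5 and 15.3 CPM in EpoR+ and 11 and 5.85 CPM in EpoR- libraries (0.94 ± 0.33, adjusted p = 0.13). Tlr5 had 33 and 32 counts in EpoR+ and 4 and 0 in EpoR- libraries, and its adjusted p was 0.0948, or 0.0413 with DESeq2, 0.0456 with no filter on low counts and 0.0329 without the first EpoR- library.

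The order of the members by RPKM differed between the fractions. In EpoR- libraries Tlr11 (136 ± 16.5), Tlr3 (100 ± 19.7) and Tlr12 (45.0 ± 5.05) led without overlap, and Tlr7 (0.612 ± 0.0101) stood ninth. In EpoR+ libraries Tlr11 (54.8 ± 9.54) led, Tlr3 (42.0 ± 7.75) and Tlr7 (39.9 ± 1.25) overlapped behind it, and all but Tlr5 lay above 16 RPKM. Tlr3, Tlr11 and Tlr12 together made up 43.1 ± 1.9% of the summed RPKM in EpoR+ and 81.4 ± 0.65% in EpoR- libraries. Tlr1, Tlr2, Tlr4 and Tlr7 together made up 38.5 ± 3.16% in EpoR+ and 4.33 ± 0.848% in EpoR- libraries. Both sets were formed after the calls were seen and are given as a description. The summed level itself was 279 ± 26.8 RPKM in EpoR+ and 345 ± 53.5 RPKM in EpoR- libraries.

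Markers moved with these differences. Macrophage markers were called higher for 12 of 12 (summed level 19700 to 20000 CPM in EpoR+ and 268 to 281 CPM in EpoR-), led by Mertk (6.80 ± 0.39) and Fcna (6.75 ± 0.12). The cDC2 markers were called higher for 6 of 8 (1900 to 1960 CPM in EpoR+ and 45.2 to 54.5 CPM in EpoR-). Most of the cDC2 sum came from 1 gene, Sirpa, at 1800 ± 72.4 CPM in EpoR+ and 28.9 ± 6 CPM in EpoR- libraries. The cDC1 markers were called lower for 8 of 9 (7350 to 8720 CPM in EpoR+ and 15400 to 16800 CPM in EpoR-), with Xcr1 at -1.29 ± 0.13 and Clec9a at -1.24 ± 0.12. All markers of these 3 lists were above 0 in both fractions. The median log2 fold change was -1.10 over the cDC1 markers and 6.50 over the macrophage markers. Of 9 plasmacytoid dendritic cell markers 3 were called higher and 1 lower (199 to 201 CPM in EpoR+ and 135 to 189 CPM in EpoR-). Of 10 monocyte and neutrophil markers 3 were called higher and 2 lower (1180 to 1350 CPM in EpoR+ and 957 to 1030 CPM in EpoR-). Of 8 tested B cell markers 1 was called higher and 2 lower, and of 3 tested T cell markers 0 were called. The part of macrophages or of other cells in the Toll-like receptor values was not tested.

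The genes that work with these receptors were counted from lists chosen with earlier results known, and each count is to be read against the 16.7% of all genes called. Of 9 tested coreceptor and ligand-handling genes 5 rose and 1 fell in EpoR+ cells (median 0.71). Cd14, which hands lipopolysaccharide to Tlr4, had 140 and 294 CPM in EpoR+ and 11.2 and 23.9 CPM in EpoR- libraries (3.62 ± 0.61, adjusted p = 0.0357), and Ly96 had 12.9 and 15.3 CPM in EpoR+ and 3.71 and 2.97 CPM in EpoR- libraries (2.06 ± 0.25, adjusted p = 0.00501). Both thus rose together with Tlr4, and Cd36, a scavenger receptor that presents lipids to Tlr2, fell (-0.88 ± 0.16, adjusted p = 0.0186).

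Of 17 tested genes of folding, trafficking and endosomal processing 9 rose and 2 fell (median 0.88). Pld3, a nuclease that degrades ligands of Tlr9, had 836 and 746 CPM in EpoR+ and 9.84 and 6.51 CPM in EpoR- libraries (6.58 ± 0.27, adjusted p = 0.00016). The proteases Lgmn and Ctsl, which process endosomal receptors, rose by 4.66 ± 0.11 and 4.20 ± 0.21. Unc93b1 itself did not pass the test (1090 ± 46.2 CPM in EpoR+ and 961 ± 96.8 CPM in EpoR-, adjusted p = 0.385).

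Calls among the adaptors and the kinases were about as frequent as among all genes. Of 6 adaptors 1 rose, Ticam2, which links Tlr4 to TRIF, with 12 and 9.02 CPM in EpoR+ and 1.99 and 1.37 CPM in EpoR- libraries (2.62 ± 0.34, adjusted p = 0.00601). Myd88 (0.00 ± 0.11, adjusted p = 0.998) and Ticam1 (-0.19 ± 0.19, adjusted p = 0.583) did not pass. Of 16 kinases and ligases 2 fell, Chuk (-0.53 ± 0.12) and Traf6 (-0.45 ± 0.11), and of 8 transcription factors Irf8 (-0.84 ± 0.12) and Irf5 (-0.43 ± 0.09) fell. Irf8 is also a cDC1 marker.

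Of 13 negative regulators 3 rose and 2 fell. Irak3, a kinase homologue that restrains MyD88 signalling, had 14.8 and 15.8 CPM in EpoR+ and 2.57 and 1.66 CPM in EpoR- libraries (2.83 ± 0.30, adjusted p = 0.00297), whereas Tifab, which restrains TRAF6 signalling, fell (-0.91 ± 0.09, adjusted p = 0.00274). Of 17 tested response genes 1 was called, the chemokine Ccl5 (1.27 ± 0.17, adjusted p = 0.00704). Some of these genes, named here after their values were seen, varied widely within a fraction. Il1b ran from 98.5 to 519 CPM in EpoR- and from 69.7 to 407 CPM in EpoR+ libraries. Il10 ran from 2.87 to 23.4 CPM in EpoR+ and from 0.267 to 0.449 CPM in EpoR- libraries, without overlap, and was not called. A response gene without a call may thus still differ. Among 12 other sensors of microbes 4 rose, led by Ddx58, which encodes the RNA sensor RIG-I (3.28 ± 0.15, adjusted p = 0.00019), and Nod1 (1.89 ± 0.19).

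In the TLI/ATS comparison these lists held few calls, where 2.70% of all genes were called. They were 1 of 17 tested folding, trafficking and endosomal genes, 1 of 16 kinases and ligases and 1 of 17 response genes. Ctsl fell (-2.73 ± 0.20, adjusted p = 0.00811), as did Ikbke, a kinase that acts on interferon regulatory factors (-5.36 ± 0.33, adjusted p = 0.00577), and Ccl5 (-1.27 ± 0.16, adjusted p = 0.0267). No other gene of the pathway lists passed edgeR's test in that comparison, and Myd88 (0.48 ± 0.17), Unc93b1 (0.10 ± 0.16) and Irf8 (0.38 ± 0.15) were among those that did not.

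In the third table, surface and profilin receptors led the family. Summed member RPKM was 29.2 ± 0.939 in lymph node cKO, 26.3 ± 3.84 in lymph node control, 40.8 ± 0.432 in spleen cKO and 37.2 ± 2.72 in spleen control libraries (SD, n = 3 each). These levels are not compared with those of the first and second tables, which were made by another library protocol and counted separately. In spleen, Tlr11 led (13 ± 0.395 RPKM in cKO and 12 ± 1.31 in control), followed without overlap by Tlr2 (9.58 ± 0.247 and 9.62 ± 0.62) and Tlr1 (6.89 ± 0.918 and 6.24 ± 0.255). In lymph node, Tlr2 led (9.51 ± 0.955 in cKO and 8.52 ± 2.43 in control) and overlapped with Tlr11 (7.96 ± 1.65 and 6.25 ± 0.337).

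Tlr3 stood sixth in spleen (2.36 ± 0.16 RPKM in cKO and 2.04 ± 0.62 in control) and seventh in lymph node (0.521 ± 0.0568 in cKO and 0.343 ± 0.265 in control). Tlr4 had 6, 0 and 0 counts in lymph node cKO, 0 in each lymph node control, 38, 3 and 4 in spleen cKO and 0, 0 and 12 in spleen control libraries. Tlr5 was at 0 in all 6 lymph node libraries and had 4, 0 and 0 counts in spleen cKO and 0, 0 and 6 in spleen control libraries. Neither passed the filter on low counts, so 8 of the 10 members were tested. Tlr7 passed it through a few libraries, with 0, 15 and 8 counts in lymph node cKO, 0, 2 and 59 in lymph node control and 2, 30 and 2 in spleen cKO libraries, while spleen controls had 1 count each. The fold changes of Tlr7 in the third table rest on these few counts, and no comparison of that table called it.

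**Figure D3:**
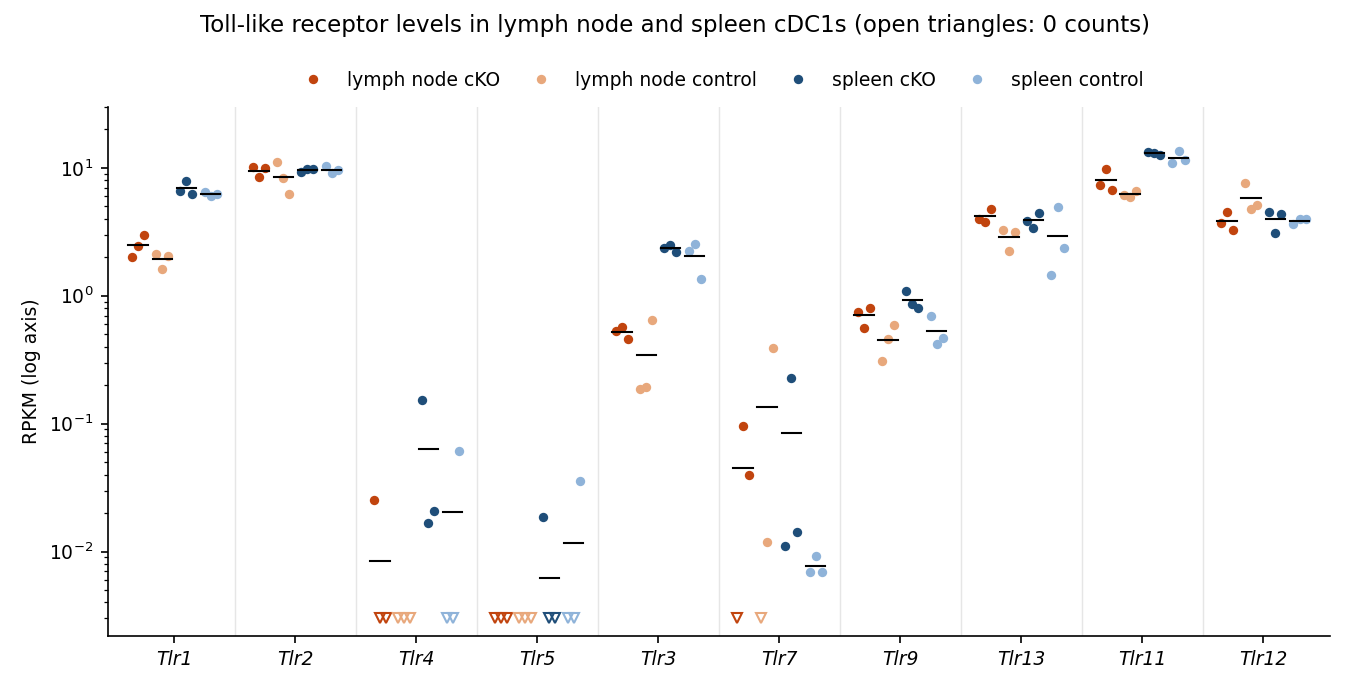
RPKM (log axis) of the 10 members in the third table, 1 point per library and a line at the group mean, with open triangles for libraries at 0 counts. Tlr1, Tlr3 and Tlr11 stand lower in every lymph node library than in any spleen library, and Tlr4, Tlr5 and Tlr7 rest on few counts.

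Lymph node cDC1s had less Tlr3, Tlr1 and Tlr11 than spleen cDC1s in both genotypes, and no member was called higher. Among cKO libraries 3 of 8 tested members fell, where 29.4% of all 17362 genes were called, 14.1% higher and 15.3% lower, and the groups did not overlap for 3 members, against 53.1% of genes. Among control libraries Tlr1, Tlr3 and Tlr11 fell again, where 41.3% of genes were called, 21.0% higher and 20.3% lower, and the groups did not overlap for 4 members, against 51.1% of genes. Calls were thus common among all genes in these comparisons. The 2 comparisons share no library, but they share the fitted spread. The median log2 fold change of the members was -0.79 in cKO and -0.49 in control libraries, beside 0 and -0.01 over all genes.

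Tlr3 had 2.77, 2.98 and 2.39 CPM in lymph node cKO libraries and 12.4, 13.1 and 11.4 CPM in spleen cKO libraries. Every lymph node value was below every spleen value, a 5.37-fold lower level (log2 fold change -2.42 ± 0.40, edgeR adjusted p = 0.000276). In controls it had 0.981, 0.999 and 3.38 CPM in lymph node and 11.7, 13.2 and 7.02 CPM in spleen libraries (-2.86 ± 0.41, adjusted p = 5.08e-05). One lymph node control stood over 3 times above the other ones and 1 spleen control below its group, yet the groups did not overlap.

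Tlr1 had 6.71, 8.18 and 9.96 CPM in lymph node cKO and 21.9, 26.5 and 20.7 CPM in spleen cKO libraries (-1.72 ± 0.20, adjusted p = 9.15e-06). In controls it had 7.11, 5.38 and 6.78 CPM in lymph node and 21.7, 20 and 20.8 CPM in spleen libraries (-2.0 ± 0.20, adjusted p = 1.4e-06). The spleen controls lay within a narrow band and far above the lymph node ones. Its homologue Tlr6 had 2.04, 0.518 and 0.644 CPM in lymph node cKO and 4.38, 3.69 and 4.54 CPM in spleen cKO libraries (-2.21 ± 0.52, adjusted p = 0.00469), but in controls its groups overlapped (-0.72 ± 0.51, adjusted p = 0.276).

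Tlr11 had 23.9, 32.2 and 22.1 CPM in lymph node cKO and 43.6, 42.8 and 41.1 CPM in spleen cKO libraries (-0.96 ± 0.14, adjusted p = 8.31e-05). In controls it had 20.2, 19.5 and 21.7 CPM in lymph node and 35.8, 44.1 and 37.9 CPM in spleen libraries (-1.23 ± 0.14, adjusted p = 4.82e-06). Its heterodimer partner Tlr12 did not go with it: it had 11.7, 14.4 and 10.4 CPM in lymph node cKO and 14.2, 9.81 and 13.9 CPM in spleen cKO libraries (-0.31, 95% interval -0.78 to 0.17). In controls Tlr12 had 24.1, 15.2 and 16.4 CPM in lymph node and 11.5, 12.6 and 12.7 CPM in spleen libraries, higher in each lymph node library without passing the test (0.30, interval -0.17 to 0.78, adjusted p = 0.299).

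Tlr2 had 30.6, 25.4 and 30 CPM in lymph node cKO and 28.0, 29.3 and 29.3 CPM in spleen cKO libraries (-0.25, interval -0.64 to 0.14). In controls it had 33.4, 24.9 and 18.8 CPM in lymph node and 31.0, 27.2 and 28.8 CPM in spleen libraries (-0.47 ± 0.18, adjusted p = 0.0537). The adjusted p of the control comparison was 0.0319 with DESeq2 and 0.00736 without the first lymph node control. Tlr9 (-0.62 ± 0.41 in cKO and -0.52 ± 0.42 in control) and Tlr13 (-0.14 ± 0.32 and -0.31 ± 0.32) overlapped between the tissues. With TMM factors of 1.06 to 1.13 in lymph node and 0.837 to 0.936 in spleen libraries, scaling lowered lymph node values relative to CPM, so that like CPM in the 2 tissues correspond to a negative log2 fold change.

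**Figure D4:**
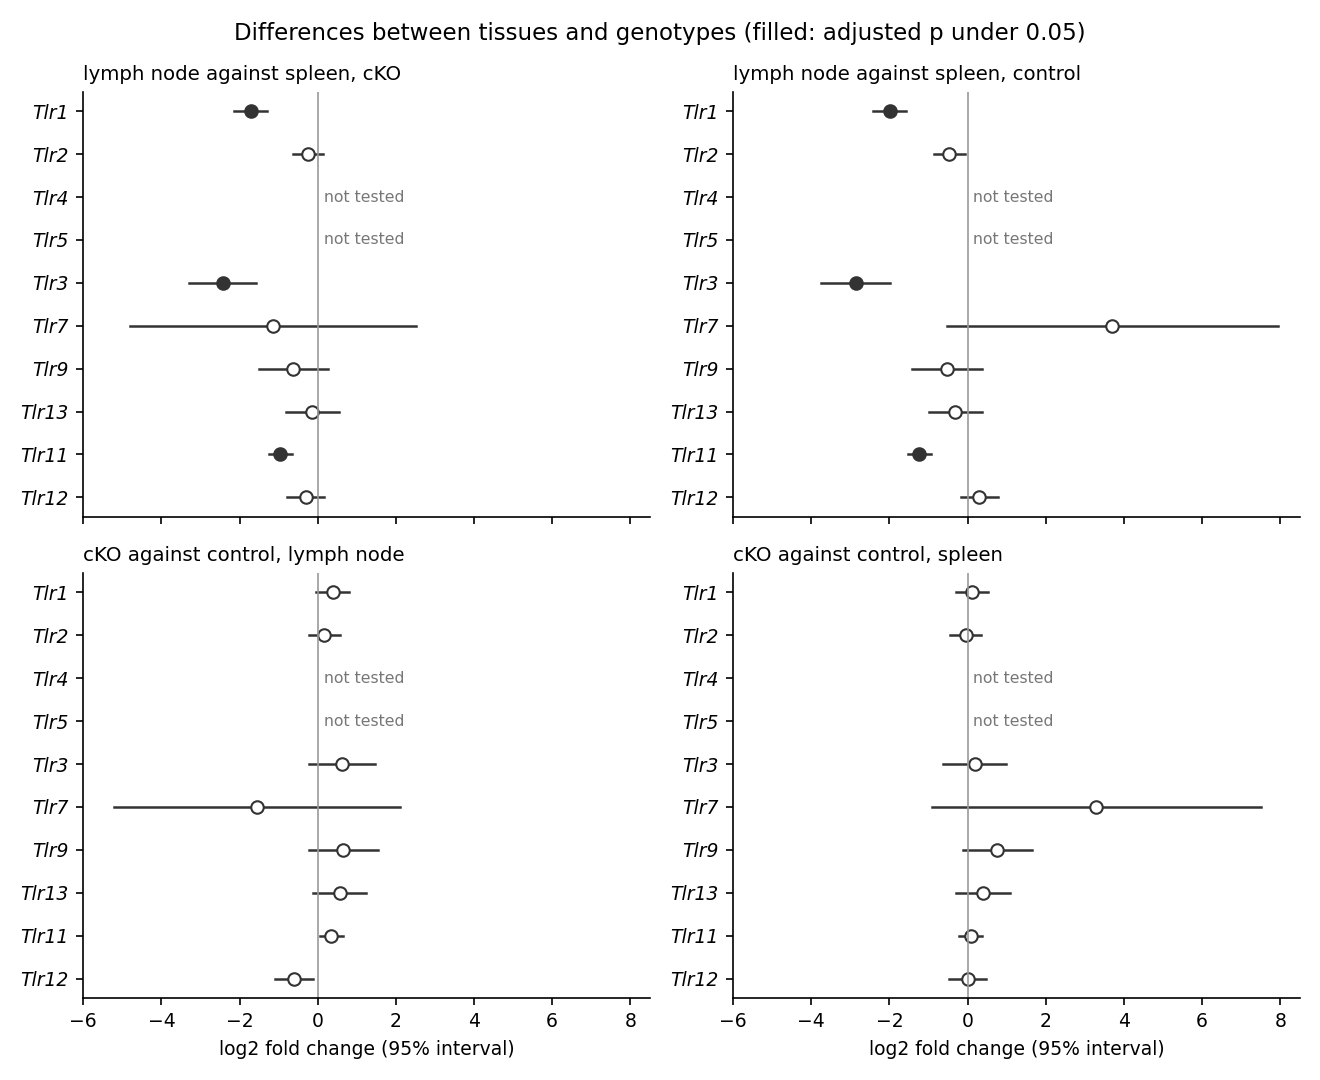
Log2 fold change of each member with its 95% interval in the third table, lymph node against spleen above (cKO left, control right) and cKO against control below (lymph node left, spleen right); filled points have an adjusted p under 0.05. Tlr1, Tlr3 and Tlr11 are filled in both upper panels, and no point is filled below; the wide intervals of Tlr7 rest on few counts, and Tlr4 and Tlr5 were not tested.

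The cDC1 markers were lower in lymph node too, for 8 of 9 among cKO libraries (1950 to 2060 CPM in lymph node and 3310 to 3440 CPM in spleen) and for 7 of 9 among controls (2020 to 2050 CPM in lymph node and 3310 to 3410 CPM in spleen). T cell markers were higher for 9 of 10 in each genotype, at 122 to 133 CPM in lymph node cKO against 25.9 to 33.2 CPM in spleen cKO libraries. Macrophage markers went both ways. Of 11 tested, 1 was called higher and 4 lower among cKO libraries (median log2 fold change 0.38, summed level 128 to 144 CPM in lymph node and 201 to 220 CPM in spleen), and 3 higher and 4 lower among controls (median 1.35, 140 to 155 CPM in lymph node and 243 to 269 CPM in spleen). Cd5l was at 0 in spleen cKO and Cd163 at 0 in spleen control libraries. B cell markers were called lower for 4 of 10 among cKO libraries (12.2 to 12.7 CPM in lymph node and 57.3 to 70 CPM in spleen), and for 2 of 10, with 1 higher, among controls (10.2 to 16 CPM in lymph node and 35.5 to 54.6 CPM in spleen). Monocyte and neutrophil markers were called lower for 5 of 9 tested among cKO libraries (83.1 to 105 CPM in lymph node and 191 to 205 CPM in spleen), and for 4 of 9, with 1 higher, among controls (121 to 127 CPM in lymph node and 142 to 169 CPM in spleen). The part of all these markers in the receptor differences was not tested.

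Genes around the receptors were called between the tissues as well, where 29.4% of all genes were called among cKO and 41.3% among control libraries. Calls were 1 of 6 adaptors in cKO and 2 of 6 in control libraries, and 2 of 16 kinases and ligases rose and 4 fell in cKO while 6 rose and 5 fell in control libraries. Of 17 tested response genes 11 fell and 1 rose in lymph node among cKO libraries (median -1.15), and 12 fell and 1 rose among controls (median -1.58). The chemokines Ccl3 (-3.44 ± 0.37 in cKO and -4.21 ± 0.40 in control), Ccl4 (-3.08 ± 0.13 and -3.13 ± 0.13) and Cxcl9 (-2.63 ± 0.14 and -3.30 ± 0.14) fell most, and Ccl5 was the gene that rose (1.62 ± 0.13 and 1.64 ± 0.13). Of 8 tested coreceptor genes 5 fell in each genotype, and 1, Hmgb1, rose in controls (0.55 ± 0.11). Those that fell in both included Cd180, an inhibitory relative of Tlr4 (-2.69 ± 0.20 and -2.93 ± 0.21), Cd36 (-2.16 ± 0.18 and -2.17 ± 0.18) and Cd14 (-1.46 ± 0.38 and -1.76 ± 0.39). Itgam, a subunit of complement receptor 3, had 10, 0 and 10 counts in lymph node cKO and 50, 35 and 48 in spleen cKO libraries (adjusted p = 0.0525), and 0, 0 and 4 counts in lymph node control and 32, 16 and 27 in spleen control libraries (adjusted p = 0.0118). It was the gene of this list with the largest fitted difference in each genotype, and it is named after its values were seen.

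Among 12 tested negative regulators 5 rose and 3 fell in cKO libraries and 6 rose and 4 fell in controls. Irak3 (2.59 ± 0.39 in cKO and 2.81 ± 0.39 in control), Sigirr, a decoy-like receptor of the same superfamily (1.04 ± 0.12 and 1.26 ± 0.12), and Tnip1, a partner of A20 (0.82 ± 0.10 and 1.13 ± 0.10), were the largest rises. Of the transcription factors, the NF-kappaB subunit Rel fell (-1.13 ± 0.09 in cKO and -1.89 ± 0.09 in control), Irf5 fell (-0.50 ± 0.08 and -0.52 ± 0.08) and Nfkb2 rose (0.54 ± 0.06 and 0.49 ± 0.06). Unc93b1 fell in both genotypes (-0.65 ± 0.08 and -0.61 ± 0.08), and Myd88 did not pass in either (-0.09 ± 0.13 and 0.13 ± 0.13).

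Deletion of Epor left no member past the threshold in either tissue. In lymph node 0 of 8 tested members were called, where 0.455% of 17362 genes were called, and in spleen 0 of 8, where 0.611% were called. At an unadjusted p under 0.05 edgeR gave 2 members in lymph node (Tlr11 and Tlr12) and 0 in spleen. Over all 17362 genes, 1304 in lymph node and 2255 in spleen had such a p. DESeq2 called 0 members in both tissues. The groups did not overlap for 3 members in lymph node and 2 in spleen, against 15.9% and 17.1% of all genes. The median log2 fold change of the members was 0.37 in lymph node and 0.14 in spleen, beside 0 over all genes in both.

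In lymph node, Tlr12 had 11.7, 14.4 and 10.4 CPM in cKO and 24.1, 15.2 and 16.4 CPM in control libraries. All cKO libraries were below all controls (log2 fold change -0.60, interval -1.08 to -0.13, edgeR adjusted p = 0.498). Tlr11, whose cKO libraries were above all controls, changed by 0.35 (interval 0.06 to 0.65, adjusted p = 0.551), and Tlr13, with 17.1, 16.4 and 20.6 CPM in cKO and 13.9, 9.62 and 13.5 CPM in control libraries, by 0.56 (interval -0.12 to 1.25). The intervals ran from -0.04 to 0.80 for Tlr1, from -0.22 to 0.56 for Tlr2 and from -0.22 to 1.47 for Tlr3.

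In spleen, the intervals of Tlr11 (-0.22 to 0.37), Tlr2 (-0.44 to 0.35), Tlr12 (-0.47 to 0.48) and Tlr1 (-0.31 to 0.51) were the narrowest. Tlr9 had 3.79, 3.01 and 2.79 CPM in spleen cKO and 2.41, 1.47 and 1.64 CPM in spleen control libraries, higher in each cKO library (0.76, interval -0.13 to 1.65, adjusted p = 0.469). Tlr13 varied most among the spleen controls, with 6.28, 21.4 and 10.1 CPM against 16.6, 14.6 and 19.1 CPM in cKO libraries, and its interval ran from -0.30 to 1.08. The difference of the cKO effect between lymph node and spleen was called for 0 of 8 members, where 0.317% of genes were called. At an unadjusted p under 0.05 edgeR gave 0 members, beside 2173 of 17362 genes, and DESeq2 called 0 members.

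In lymph node cKO cells a few pathway genes were called higher without a member being called, where 0.455% of all genes were called. The lists of coreceptors, of folding and trafficking genes, of kinases and of other sensors held no call. Those called were 1 of 6 tested adaptors, 2 of 17 response genes, 1 of 12 negative regulators and 1 of 8 transcription factors. These were the adaptor Pik3ap1, with 21.5, 23.6 and 24.4 CPM in cKO and 14, 14.8 and 13.9 CPM in control libraries (0.71 ± 0.13, adjusted p = 0.0143), Il1b (0.80 ± 0.15, adjusted p = 0.0263), Cxcl9 (0.67 ± 0.13, adjusted p = 0.0311), Nlrc5 (0.41 ± 0.07, adjusted p = 0.00696) and Rel (0.48 ± 0.09, adjusted p = 0.0165). In spleen no gene of the pathway lists passed edgeR's test. Of 9 cDC1 markers 2 were called higher in lymph node cKO and 1 in spleen cKO libraries. The cDC2, B cell, plasmacytoid dendritic cell, T cell, and monocyte and neutrophil markers held no call in either tissue. Of 11 tested macrophage markers 0 were called by edgeR in lymph node (median log2 fold change -0.11), with a summed level of 128 to 144 CPM in cKO and 140 to 155 CPM in control libraries. In spleen 1 was called lower, with a median of 0.35 and a range from -3.95 to 5.39, while the sum was 201 to 220 CPM in cKO and 243 to 269 CPM in control libraries. In lymph node the T cell sum was 122 to 133 CPM in cKO and 168 to 184 CPM in control libraries. The monocyte and neutrophil sum there was 83.1 to 105 CPM in cKO and 121 to 127 CPM in control libraries. In spleen that sum was 191 to 205 CPM in cKO and 142 to 169 CPM in control libraries. The B cell sum in spleen was 57.3 to 70 CPM in cKO and 35.5 to 54.6 CPM in control libraries. Marker sums not given here overlapped between the genotypes. The part of these markers was not tested.

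By role, the receptors divided as follows. The profilin receptors Tlr11 and Tlr12 made up 54.5 ± 2.44% of the summed RPKM after TLI/ATS and 61.5 ± 0.0444% in untreated cells. They made up 28.1 ± 0.561% in EpoR+ and 52.5 ± 1.88% in EpoR- cells. In the third table they made up 40.2 ± 6.65% in lymph node cKO, 46.0 ± 1.36% in lymph node control, 41.6 ± 1.86% in spleen cKO and 42.5 ± 1.57% in spleen control libraries. Surface receptors made up 24.2 ± 2.24% in EpoR+ and 4.16 ± 0.813% in EpoR- cells, 9.88 ± 0.41% after TLI/ATS and 10.1 ± 1.24% in untreated cells, and between 39.4 ± 5.31% and 42.9 ± 5.07% in the 4 groups of the third table, where Tlr2 and Tlr1 carried nearly all of it.

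**Figure D5:**
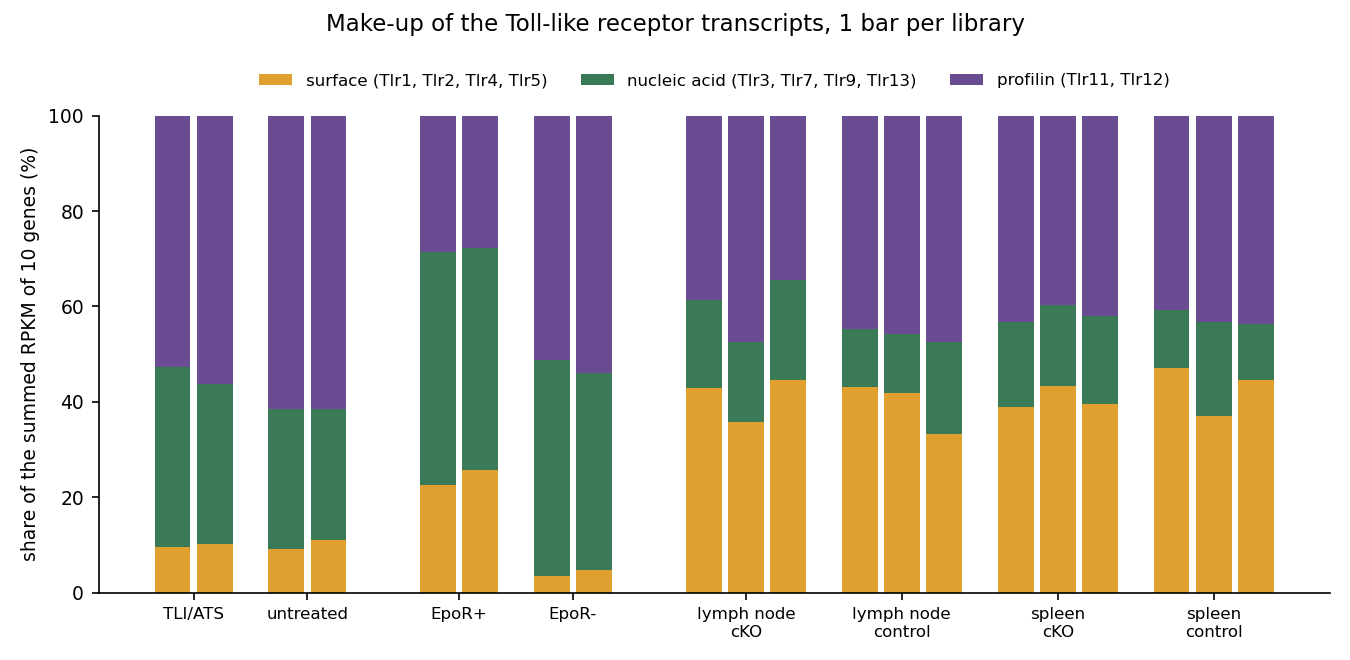
Share (%) of the summed RPKM of the 10 members taken by surface, nucleic acid and profilin receptors, 1 bar per library in the order TLI/ATS, untreated, EpoR+, EpoR-, lymph node cKO, lymph node control, spleen cKO, spleen control. The profilin share is 27.7 to 28.5% in EpoR+ bars, against 51.2 to 53.8% in EpoR- bars.

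Across the 12 libraries of the third table, Tlr1, Tlr3 and Tlr11 went together (Pearson r of log2 CPM 0.936 for Tlr1 with Tlr3, 0.954 for Tlr1 with Tlr11 and 0.948 for Tlr3 with Tlr11), whereas Tlr12 did not go with Tlr11 (-0.071). These points share tissue and genotype, and the values are a description. The genes most like each member were Mycl (0.992), Napsa and Batf (0.991 each) for Tlr1, Ptpn18 (0.987), Ciita (0.984) and Il1b (0.983) for Tlr3, and Gna13 (0.989), Atp5g3 (0.985) and Asb2 (0.983) for Tlr11, out of 8592 genes searched. Aldh1a2 (0.923) was most like Tlr2, Pla2g4f (0.861) most like Tlr13 and Adh5 (0.796) most like Tlr12. After the group means were taken out, r was 0.874 for Tlr1 with Mycl, 0.926 for Tlr3 with Ptpn18, 0.886 for Tlr11 with Gna13 and 0.479 for Tlr11 with Asb2.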

How the data were processed

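The gene counts were deposited by the authors as raw whole numbers. According to the submitters' processing notes, HISAT2, SAMtools, StringTie and featureCounts made the first table on GRCm38; no source used here gives its annotation or tool versions. The second table was counted by featureCounts 2.0.3 and the third by featureCounts 2.0.8 with Ensembl release 100, per the file headers; for the third the notes name HISAT2 2.1.0 as aligner. Those headers show paired input with neither a strand option nor counting of fragments, so that 1 fragment may give 2 counts. Per the labels' protocols, the third table's libraries used 10 ng of RNA and 150 pg of cDNA.

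Each table was fitted apart with edgeR 4.0.16 (limma 3.58.1, R 4.3.3; filterByExpr with minimum count 10 and minimum total 15, TMM, robust quasi-likelihood test, Benjamini-Hochberg threshold 0.05), the third on all 12 libraries with a mean per group; 95% intervals come from the standard error. DESeq2 1.42.0, other scalings, no filter, replicate blocks and leaving out each library were alternatives. The first table gives no gene lengths, so RPKM used those of the second. Members, lists, tests and the rule for named genes (all members; in each list up to 3 non-overlapping called genes per direction, by fold, with a mean log2 CPM of at least 0, plus Myd88, Ticam1, Unc93b1, Cd14, Ly96, Irf5, Irf7 and Irf8; the 3 genes most like each member) were chosen with earlier results of these data known. Replicate numbers were not taken to pair libraries.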

Additional observations from a re-analysis of the deposited data

Results flagged for a closer look

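Rel, which encodes an NF-kappaB subunit downstream of the Toll-like receptors, differed between tissues in its response to Epor deletion. It had 290, 308 and 253 CPM in lymph node cKO and 190, 194 and 228 CPM in lymph node control libraries, all cKO libraries above all controls. It had 527, 504 and 532 CPM in spleen cKO and 633, 696 and 525 CPM in spleen control libraries, which overlapped. The cKO effect was 0.48 ± 0.09 on the log2 scale in lymph node and -0.28 ± 0.09 in spleen, and the test of the difference itself gave 0.76 ± 0.12 (edgeR adjusted p = 0.011 over 17362 genes). No Toll-like receptor gene met this criterion.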

How the results depend on the processing

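The 7 calls between EpoR+ and EpoR- cells and the 3 in each tissue comparison held in every alternative run. Members past the threshold after TLI/ATS numbered 0 in edgeR's main test, 3 with DESeq2, 2 with a replicate block and 2 with the numbers crossed (added after seeing the data, same-numbered libraries correlating at -0.11), and 0 to 8 with 1 library left out. Over all genes TLI/ATS called 465, against 1414 with DESeq2, 1264 with the block, 1159 with the crossed block and 476 to 4908 with 1 library left out. EpoR+ against EpoR- called 2606, against 5347 with the block (r = 0.64 between same-numbered libraries, 9 members called, with Tlr13 at an adjusted p of 0.0497 and Tlr5 at 0.0451) and 1454 to 2600 with 1 library left out. Spleen cKO called 106, against 549 with DESeq2, 436 with no filter, 40 with the block and 31 to 379 with 1 library left out. Lymph node cKO called 79, against 177, 170, 62 and 51 to 72 in the same order, and 44 with only its 2 groups in the fit. The tissue difference of the cKO effect called 55, against 426, 364, 34 and 29 to 222. With all libraries kept, 1 direction changed: spleen cKO Tlr12, 0.0068, was -0.0075 with DESeq2 size factors, -0.0266 with upper quartile scaling, -0.0072 with DESeq2 and -0.0081 with the block. With 1 library left out, log2 fold changes changed direction, over the ranges -0.0452 to 0.62 (Tlr2), -0.23 to 0.48 (Tlr11), -0.56 to 0.19 (Tlr12) and -0.43 to 0.90 (Tlr13) after TLI/ATS; -0.49 to 0.066 for Tlr9 in EpoR+; -0.10 to 0.0256 (Tlr2) and -0.0728 to 0.18 (Tlr12) in spleen cKO; -0.0217 to 0.41 (Tlr2) and -2.62 to 2.71 (Tlr7) in lymph node cKO; -0.33 to 0.12 (Tlr9) and -0.40 to 0.49 (Tlr13) for the tissue difference; -2.21 to 1.53 for Tlr7 between tissues in cKO; and -0.55 to 4.29 (Tlr7) and -0.61 to 0.28 (Tlr13) in controls. These causes were not tested. Tlr4, Tlr5 and Tlr7 in the third table rest on few counts.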

Other observations

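Tlr9 is set side by side in the 2 tables of XCR1+CD8a+ cDC1s after TLI/ATS, which were counted separately. It averaged 76.9 ± 17.1 CPM in EpoR+ and 89.2 ± 23 CPM in EpoR- libraries of the second table, and 0.796 ± 0.223 CPM in the TLI/ATS libraries of the first (SD, n = 2 each). Tlr7 averaged 163 CPM in EpoR+ and 2.50 CPM in EpoR- libraries, and 1.93 CPM in the TLI/ATS libraries of the first table. Tlr4 averaged 118 CPM in EpoR+ and 7.25 CPM in EpoR- libraries, and 7.66 CPM in the TLI/ATS libraries of the first table. For Tlr1 the averages were 55.8 CPM in EpoR+, 7.8 CPM in EpoR- and 7.23 CPM in the TLI/ATS libraries of the first table. Among these genes Tlr9 alone stood far above the first table in both fractions. With counts pooled over both fractions, which the first table does not separate, the second table stood above the first by 104-fold for Tlr9. The pooled folds of 42.4 for Tlr7, 8.08 for Tlr4 and 4.3 for Tlr1 rest on the EpoR+ libraries. For the other members the ratio ran from 1.01 (Tlr12) to 1.81 (Tlr13). Rnaset2a of the trafficking list, named after its values were seen, went the other way. It averaged 297 CPM in the TLI/ATS libraries of the first table, 0.811 CPM in EpoR+ and 0.388 CPM in EpoR- libraries. The mice differed in genotype, and no source used here gives the annotation of the first table. The cause was not tested.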
